A study of Mus musculus with 19 samples.

Results

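Expression of 10 genes of bile acid synthesis and its control was followed in mouse liver. They were chosen by name from the deposited count table, as 8 enzymes (*Cyp7a1*, *Cyp8b1*, *Cyp27a1*, *Cyp7b1*, *Hsd3b7*, *Akr1d1*, *Slc27a5* and *Baat*) and 2 nuclear receptors (*Nr1h4* and *Nr0b2*), and they are 10 of the 31053 genes listed. The livers came from male C57BL6J mice that were 6 to 8 weeks old at the start. Of these, 5 were vehicle-treated (PBS), 7 received thioacetamide (TAA, a hepatotoxin that causes fibrosis) and the AAV8 vector TBG eGFP, and 7 received TAA and the AAV8 vectors TBG miR34b and miR34c. The TBG promoter restricts the vector transcript to hepatocytes. TAA was given for 12 weeks in rising doses, and the vectors were injected after 10 weeks, with sacrifice after 4 weeks according to the sample records. The paper places sacrifice 4 weeks after the injection, so the livers were taken after TAA had ended. The records name no vector for the vehicle-treated mice, so TAA and the vector differ together from vehicle and cannot be told apart. Each library is recorded as a biological replicate.

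Bile acids are made from cholesterol in hepatocytes. In the classic pathway, CYP7A1 adds the first hydroxyl group, and CYP8B1 then sets the share of cholic acid. In the alternative pathway, CYP27A1 oxidises the side chain and CYP7B1 hydroxylates the oxysterols so formed. HSD3B7 and AKR1D1 change the steroid ring, and SLC27A5 and BAAT attach coenzyme A and then taurine or glycine. Bile acids activate the receptor FXR (*Nr1h4*), which induces SHP (*Nr0b2*), and SHP represses *Cyp7a1* and *Cyp8b1* through LRH-1 and HNF4α. *Cyp7a1* is also known for a daily rhythm in liver, driven in part by the clock output factor DBP.

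The promoters of the SHP-repressed enzyme *Cyp8b1* and of *Nr0b2* itself are shown because LRH-1 acts on both. They are the 250 bases before and 50 bases after the annotated start (RefSeq, GRCm38.p6), written 5′ to 3′ on the gene's strand. The capitals mark the matches to the LRH-1 motif CAAGGNCA and, in *Cyp8b1*, also the HNF4 motif CAAAGTCCA that overlaps it.
Cyp8b1 promoter, chr9:121916256-121916555, minus strand: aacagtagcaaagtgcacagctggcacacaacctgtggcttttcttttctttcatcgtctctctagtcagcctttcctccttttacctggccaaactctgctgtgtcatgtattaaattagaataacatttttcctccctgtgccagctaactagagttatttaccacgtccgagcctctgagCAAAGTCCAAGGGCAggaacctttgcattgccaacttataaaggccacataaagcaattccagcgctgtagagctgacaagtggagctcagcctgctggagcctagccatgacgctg
Nr0b2 promoter, chr4:133553126-133553425, plus strand: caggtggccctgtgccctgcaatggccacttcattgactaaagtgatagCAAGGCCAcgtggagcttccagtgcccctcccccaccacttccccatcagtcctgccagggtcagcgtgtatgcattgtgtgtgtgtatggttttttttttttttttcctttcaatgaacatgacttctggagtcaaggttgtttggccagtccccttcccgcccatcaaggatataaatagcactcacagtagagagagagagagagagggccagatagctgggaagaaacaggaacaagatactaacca
Promoter sequence was matched for 6 of the 10 genes (*Akr1d1*, *Cyp27a1*, *Cyp8b1*, *Hsd3b7*, *Nr0b2* and *Nr1h4*). The LRH-1 motif was searched on both strands and found in 2 of these 6, in *Cyp8b1* with its first base at position -60 and in *Nr0b2* at -201 from the start site, against 6.71% of 32851 mouse promoters. The HNF4 motif was found in *Cyp8b1* at -67, against 0.475% of promoters. The D-box motif TTATGNAA, bound by DBP, was found in *Akr1d1* at -8 and in *Cyp27a1* at -60, against 3.38% of promoters. The TATA motif TATAAA was found in *Cyp8b1* at -31 and in *Nr0b2* at -28, against 13.6% of promoters. These matches describe the sequence and do not show binding in these livers.

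One of the vectors of the third group carries miR-34b, whose mature sequence is shown with its seed (bases 2 to 8) in capitals, because the seed was searched in the transcripts of the 10 genes.
mmu-miR-34b-5p: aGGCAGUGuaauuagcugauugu
The match to this seed, CACTGCC, was found in the longest annotated 3′ UTR of 0 of the 10 genes (GENCODE, GRCm38; 130 to 2600 bases). Of 15596 protein-coding genes whose longest 3′ UTR lies in that range of lengths, 11.7% held it.

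Values are CPM (counts scaled to the TMM-normalised library size), from libraries of 2214073 to 5208405 counts. Reads were sequenced near the 3′ end and were not divided by length, so levels were compared between livers and not between genes. Of the 10 genes, 9 passed edgeR's filter on low counts in all 3 comparisons, and a gene was called when its Benjamini-Hochberg adjusted p in edgeR's quasi-likelihood test was under 0.05. In 6 pairs of libraries of one group the counts lay closer together than in the other 46 pairs (biological coefficient of variation 0.0812 to 0.171 against 0.215 to 0.48), namely vehicle 1 and 4, vehicle 3 and 5, AAV-GFP 1 and 2, and AAV-miR-34b/c 1 and 2, 3 and 4, and 5 and 7. They still differed by more than counting noise (chi-square per gene at least 2.87) and were kept as separate livers, as the records number them, with values for summed pairs given beside the calls of the 10 genes that changed. Repeat preparations of 1 liver can also differ by more than counting noise, so whether each pair is 2 mice was not tested, and if it is not, n is 3, 6 and 4 and the p-values for n of 5, 7 and 7 are too small. In 3 TAA libraries (AAV-GFP 7, AAV-miR-34b/c 5 and AAV-miR-34b/c 7) the clock output gene *Dbp* was at the vehicle level, at 81.6 to 87.5 CPM against 63.9 to 107 CPM in vehicle-treated mice, while the other 11 TAA libraries had 0.795 to 35.9 CPM. Hepatocyte markers summed to 85200 to 98400 CPM with vehicle, 75400 to 89200 CPM with AAV-GFP and 67100 to 107000 CPM with AAV-miR-34b/c. Of 10 tested, 2 were called once AAV-miR-34b/c was set against vehicle, *Serpina1a* at 0.55 (adjusted p = 0.0217) and *Cps1* at -0.90 (adjusted p = 0.0051), both calls lost with close pairs summed. Of all 9290 genes tested there 21.9% were called, 12.2% higher and 9.75% lower, so this count is near the share of all genes. The 5 enterocyte markers summed to 9.54 to 96.5 CPM, with *Cdh17* and *Alpi* at 0 counts in all libraries and *Fabp2*, a fatty acid binding protein, at a mean of 41.9 CPM with vehicle, 56 CPM with AAV-GFP and 22.2 CPM with AAV-miR-34b/c. *Fabp2* was lower with AAV-miR-34b/c, by a log2 fold change of -1.34 against AAV-GFP (SE 0.31, adjusted p = 0.0165) and -0.91 against vehicle (SE 0.27, adjusted p = 0.0261), calls lost with close pairs summed. Bulk libraries do not separate fewer cells of a type from less RNA per cell.

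With TAA and AAV-GFP, *Cyp7a1*, *Cyp7b1* and *Akr1d1* fell and *Nr0b2* rose against vehicle. These are 4 of the 9 genes tested, where 12.7% of all 9522 genes tested were called, 5.19% lower and 7.54% higher. The groups did not overlap for 2 of the 9 genes, against 4.77% of all genes. The median log2 fold change of the 9 genes was -0.43, against -0.01 over all genes tested. *Cyp8b1*, *Cyp27a1*, *Slc27a5*, *Baat* and *Nr1h4* were not called by edgeR.

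*Cyp7a1* (ENSMUSG00000028240; GENCODE, GRCm38, chromosome 4 from 6265612 to 6275633, minus strand), the rate-limiting enzyme of the classic pathway, had the largest fold change of the 9 in both comparisons with vehicle. The 5 livers of vehicle-treated mice had 403, 275, 391, 407 and 364 CPM. Livers of AAV-GFP-injected mice had 35.7 to 141 CPM with a median of 42.9 CPM, and livers given AAV-miR-34b/c had 36.7 to 195 CPM with a median of 110 CPM. All 14 TAA livers were below all vehicle livers, on 92 to 559 counts per library against 834 to 1681. Against vehicle, *Cyp7a1* fell by 2.61 on the log2 scale with AAV-GFP (SE 0.28, adjusted p = 9.01e-06), which is 6.1-fold. The exact permutation p of log2 CPM was 0.00126, the smallest that 7 livers against 5 allow. With AAV-miR-34b/c it fell by 1.85 (SE 0.36, adjusted p = 0.00266; exact permutation p = 0.00253). With close pairs summed both calls held, at adjusted p of 0.00143 and 0.0497.

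**Figure D1:**
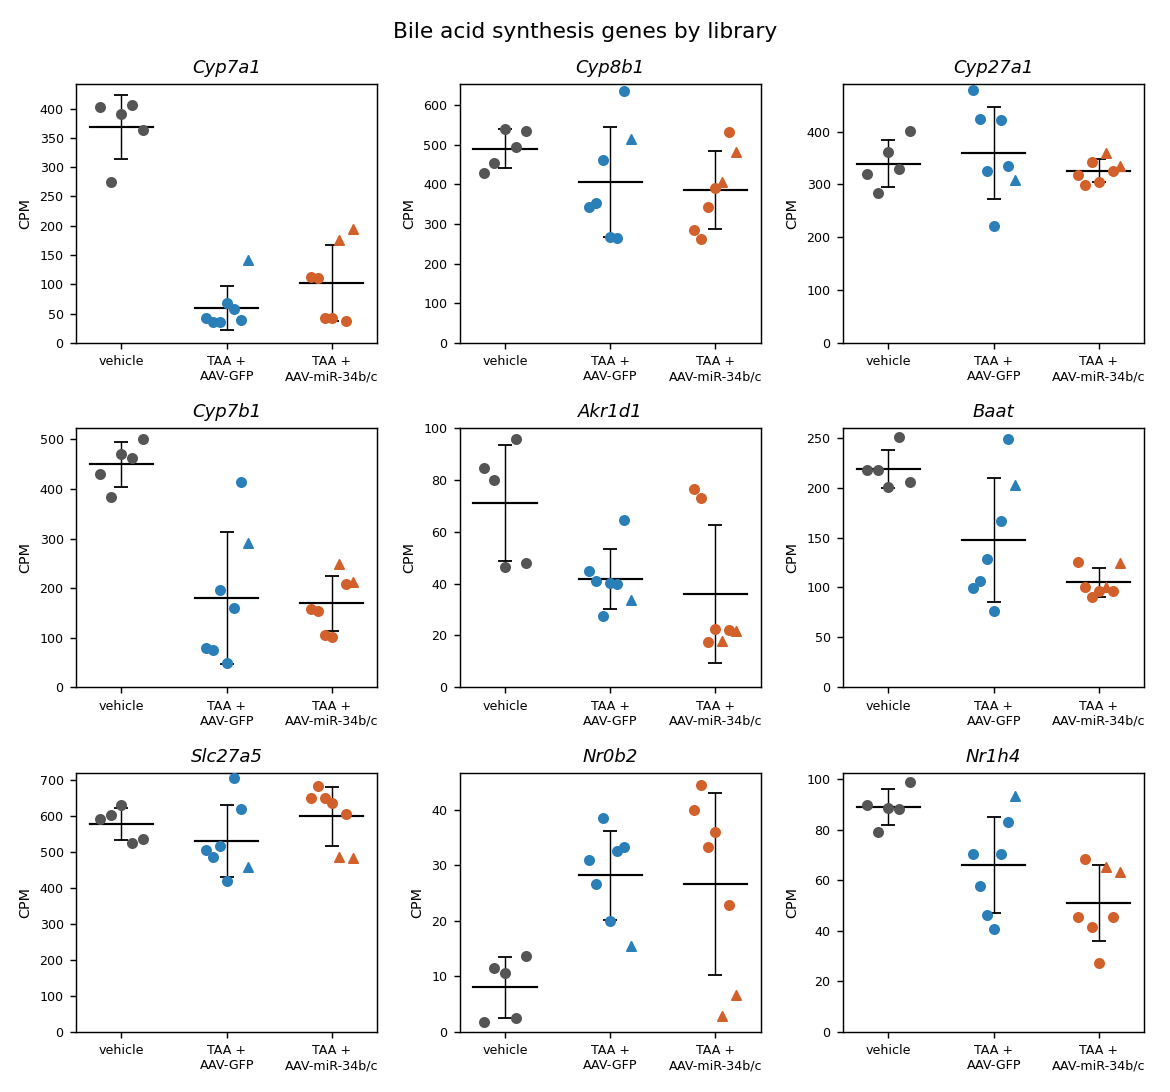
Normalised expression (CPM, linear axis from 0) of 9 genes by library in livers of vehicle-treated mice (n = 5), TAA with AAV-GFP (n = 7) and TAA with AAV-miR-34b/c (n = 7). Points are libraries, triangles the 3 TAA libraries with *Dbp* at the vehicle level, lines the means and bars the SD; all 14 TAA livers lie below the vehicle livers for *Cyp7a1*, whereas the groups overlap for *Cyp27a1* and *Slc27a5*.

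*Cyp8b1* (ENSMUSG00000050445, chromosome 9 from 121914356 to 121916305), the 12α-hydroxylase, had 428, 454, 540, 494 and 534 CPM in the 5 livers of vehicle-treated mice. It ranged from 265 to 636 CPM with a median of 352 CPM with AAV-GFP, and from 262 to 533 CPM with a median of 390 CPM with AAV-miR-34b/c. The TAA groups overlapped vehicle on both sides with AAV-GFP and only in part with AAV-miR-34b/c, where 5 of 7 livers were below all vehicle livers. Its log2 fold change was -0.27 with AAV-GFP (SE 0.20, adjusted p = 0.39) and -0.34 with AAV-miR-34b/c (SE 0.17, adjusted p = 0.163), neither of them called. A fit of libraries 1 to 5 of both groups was chosen after the data were seen and leaves out AAV-GFP 6 and 7. Its AAV-GFP value was -0.53 and was called (adjusted p = 0.0191). Libraries 6 and 7 held the highest *Cyp8b1* of their group (636 and 516 CPM), so a larger fall was fixed by leaving them out. That fit called 31.1% of all genes, against 12.7% with all libraries.

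The ratio of *Cyp8b1* to *Cyp7a1* within each library, in which library scaling cancels, separated vehicle from both TAA groups. As log2 values it was 0.42 ± 0.25 (SD, n = 5) with vehicle, 2.85 ± 0.86 (SD, n = 7) with AAV-GFP and 2.16 ± 1.14 (SD, n = 7) with AAV-miR-34b/c. All 7 livers of either TAA group were above all vehicle livers. The difference from vehicle was 2.43 with AAV-GFP (exact permutation p = 0.00126, 0.00758 adjusted over 6 tests) and 1.74 with AAV-miR-34b/c (exact permutation p = 0.00884, 0.0265 adjusted). With close pairs summed, the second difference was 1.90 and was not past the threshold (exact permutation p = 0.0857). The TAA groups differed by -0.69 (AAV-miR-34b/c against AAV-GFP; exact permutation p = 0.228). As 3′ counts depend on the 3′ ends of the 2 genes, the ratio is compared between groups and is not a ratio of molecules.

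*Cyp27a1* (ENSMUSG00000026170, chromosome 1 from 74713574 to 74737892), the side chain hydroxylase that opens the alternative pathway, had 320, 283, 361, 329 and 402 CPM with vehicle. It had 222 to 478 CPM (median 334) with AAV-GFP and 298 to 359 CPM (median 326) with AAV-miR-34b/c, which is within the vehicle range. With AAV-GFP, 3 of 7 livers were above and 1 below all vehicle livers. Its log2 fold changes were 0.09 (SE 0.18, adjusted p = 0.78) and -0.05 (SE 0.13, adjusted p = 0.80) against vehicle.

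*Cyp7b1* (ENSMUSG00000039519, chromosome 3 from 18071950 to 18243338), the oxysterol 7α-hydroxylase of the same pathway, had 430, 383, 471, 463 and 500 CPM with vehicle. It had 48.5 to 413 CPM (median 159) with AAV-GFP and 101 to 248 CPM (median 157) with AAV-miR-34b/c. AAV-GFP library 6, at 413 CPM, was within the vehicle range and the other 6 were below it. Library 4 of that group was the lowest, at 48.5 CPM. *Cyp7b1* fell by 1.32 with AAV-GFP (SE 0.37, adjusted p = 0.0244) and by 1.40 with AAV-miR-34b/c (SE 0.21, adjusted p = 0.000385), where all 7 livers were below vehicle. The first call was lost without vehicle library 1 (-1.33, adjusted p = 0.0504), without vehicle library 4 (-1.30, 0.0558) and with close pairs summed (-1.16, 0.171), with folds close to the first. It was larger without AAV-GFP library 6 (-1.66, adjusted p = 0.00205) and by limma-voom (-1.94, adjusted p = 0.000371). Library 6 held the highest *Cyp7b1* of that group, so a larger fall was fixed by leaving it out. The second call held with close pairs summed (0.0287).

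The log2 ratio of *Cyp7b1* to *Cyp7a1* was 0.30 ± 0.17 (SD, n = 5) with vehicle, 1.39 ± 1.23 (SD, n = 7) with AAV-GFP and 0.95 ± 0.81 (SD, n = 7) with AAV-miR-34b/c. The differences from vehicle were 1.09 and 0.65 and were not past the threshold (exact permutation p = 0.0808 and 0.0783, both 0.121 adjusted over 6 tests). Of 7 livers, 6 with AAV-GFP and 5 with AAV-miR-34b/c were above all vehicle livers. AAV-GFP library 4, with a linear ratio of 0.721, was below the vehicle range of 1.07 to 1.39, and without it the difference was 1.40 (exact permutation p = 0.00866). Without AAV-miR-34b/c library 7, the second difference was 0.79 (exact permutation p = 0.0346). In each comparison this was the only 1 of 12 fits leaving out 1 library with p under 0.05. These 2 libraries held the lowest ratio of their groups. Larger differences were therefore fixed by leaving them out and are a description with no test.

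**Figure D2:**
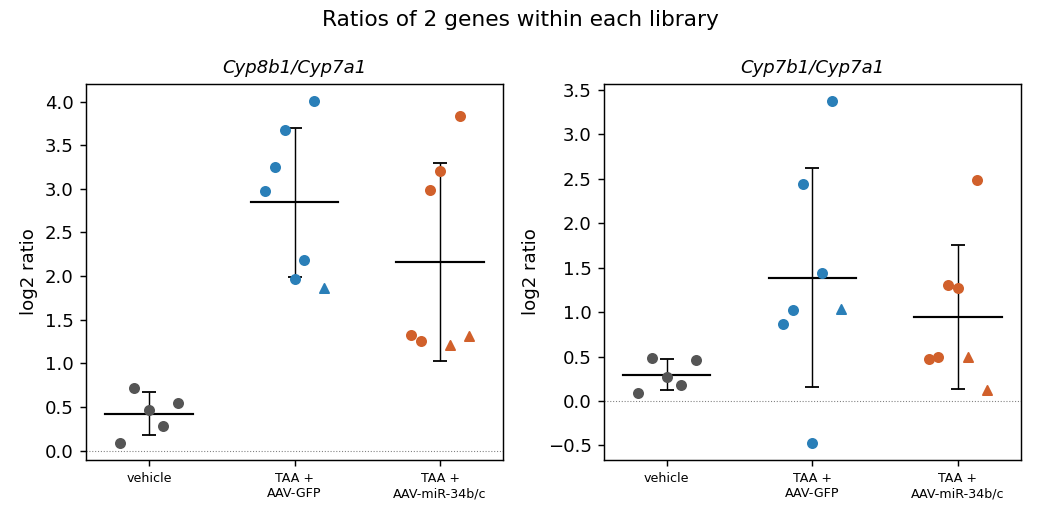
Log2 ratio of *Cyp8b1* to *Cyp7a1* and of *Cyp7b1* to *Cyp7a1* within each library, by group. Points are libraries, triangles the 3 TAA libraries with *Dbp* at the vehicle level, lines the means and bars the SD; all TAA libraries are above vehicle for the first ratio, with group means of 2.85 and 2.16 against 0.42, and the groups overlap for the second.

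*Hsd3b7* (ENSMUSG00000042289, chromosome 7 from 127800604 to 127803802), which oxidises the 3β-hydroxyl group of the steroid ring, had 0 to 5 counts per library and was not tested. In the 11 libraries with a count of 0, this allows up to 0.656 to 1.33 CPM (3 counts per library), counting error only, so a difference between groups was not detectable. Of its exon bases, 62% are shared with *Gm49388* on the same strand, so reads of the 2 genes may have been left uncounted and the value is uncertain.

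*Akr1d1* (ENSMUSG00000038641, chromosome 6 from 37530173 to 37568815), the 5β-reductase, had 84.6, 80.1, 46.5, 95.7 and 48.1 CPM with vehicle. It had 27.5 to 64.7 CPM (median 40.4) with AAV-GFP and 17.5 to 76.5 CPM (median 22.3) with AAV-miR-34b/c. The close pair AAV-miR-34b/c 1 and 2 had 76.5 and 73.2 CPM, within the vehicle range, while the other 5 livers of the group had 17.5 to 22.4 CPM, below all livers of both other groups. *Akr1d1* fell by 0.77 with AAV-GFP (SE 0.22, adjusted p = 0.0257). This call did not hold with close pairs summed (0.104), with all 3 groups in one fit (0.138) and without vehicle library 1 (0.082), 2 (0.0572) or 4 (0.107) or AAV-GFP library 3 (0.0568). With AAV-miR-34b/c its log2 fold change against vehicle was -0.99 (SE 0.38, adjusted p = 0.069), which was called without library 1 (0.00986) or library 2 (0.0142) of that group. Libraries 1 and 2 held the highest *Akr1d1* of that group, so a larger fall was fixed by leaving either out.

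*Slc27a5* (ENSMUSG00000030382, chromosome 7 from 12988346 to 12998192), the bile acid coenzyme A ligase, had 592, 603, 629, 525 and 535 CPM with vehicle. It had 420 to 706 CPM (median 504) with AAV-GFP and 483 to 682 CPM (median 637) with AAV-miR-34b/c. Of the 7 livers, 5 were below and 1 above all vehicle livers with AAV-GFP, and 2 were below and 4 above with AAV-miR-34b/c, so the TAA groups reached past vehicle on both sides. Its log2 fold changes against vehicle were -0.12 (SE 0.16, adjusted p = 0.644) and 0.06 (SE 0.14, adjusted p = 0.795).

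*Baat* (ENSMUSG00000039653, chromosome 4 from 49489422 to 49506557), which conjugates bile acids to taurine or glycine, had 218, 218, 201, 251 and 206 CPM with vehicle. It had 76.7 to 249 CPM (median 129) with AAV-GFP, where 5 of 7 livers were below all vehicle livers, and 90.6 to 126 CPM (median 100) with AAV-miR-34b/c, all below vehicle. It fell by 1.06 with AAV-miR-34b/c (SE 0.13, adjusted p = 0.000145; exact permutation p = 0.00126, the smallest possible), and this call held with close pairs summed (0.0263). With AAV-GFP its log2 fold change was -0.57 (SE 0.23, adjusted p = 0.104), which was called without AAV-GFP library 6 (0.0164) or 7 (0.0487) and by limma-voom with sample quality weights (-0.81, adjusted p = 0.00567). Libraries 6 and 7 held the highest *Baat* of that group, so a larger fall was fixed by leaving either out.

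*Nr1h4* (ENSMUSG00000047638, chromosome 10 from 89454234 to 89533585), which encodes FXR, had 89.8, 79.1, 88.7, 88.2 and 99 CPM with vehicle. It had 40.7 to 93.5 CPM (median 70.3) with AAV-GFP and 27.2 to 68.4 CPM (median 45.6) with AAV-miR-34b/c, where all 7 livers were below vehicle. It fell by 0.80 with AAV-miR-34b/c (SE 0.20, adjusted p = 0.00948), a call lost with close pairs summed (0.0775). With AAV-GFP its log2 fold change was -0.43 (SE 0.19, adjusted p = 0.137), which was called without AAV-GFP library 7 (0.0471) and by limma-voom (-0.60, adjusted p = 0.0146). Library 7 held the highest *Nr1h4* of that group, so a larger fall was fixed by leaving it out.

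*Nr0b2* (ENSMUSG00000037583, chromosome 4 from 133553376 to 133556536), which encodes SHP, had 1.73, 11.5, 10.6, 2.42 and 13.7 CPM with vehicle, on 5 to 35 counts, with the close pair 1 and 4 lowest. It had 15.5 to 38.4 CPM (median 31) with AAV-GFP, all above vehicle, and 2.86 to 44.5 CPM (median 33.3) with AAV-miR-34b/c. In the last group the close pair 5 and 7 had 2.86 and 6.63 CPM, within the vehicle range, and the other 5 livers were above it, at 22.9 to 44.5 CPM. *Nr0b2* rose by 1.86 with AAV-GFP (SE 0.38, adjusted p = 0.00465; exact permutation p = 0.00126), which held with close pairs summed (0.0462). With AAV-miR-34b/c it rose by 1.77 (SE 0.59, adjusted p = 0.0395; exact permutation p = 0.0821). This call was lost with close pairs summed (0.158) and in 7 of the 12 fits that each left out 1 library, namely vehicle 1 (0.0978), 2 (0.0512), 3 (0.0554) or 4 (0.106), or AAV-miR-34b/c 3 (0.0701), 4 (0.0711) or 6 (0.0505).

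Against vehicle, 5 of the 9 genes tested were called with AAV-miR-34b/c, with *Cyp7a1*, *Cyp7b1*, *Baat* and *Nr1h4* lower and *Nr0b2* higher. Of all 9290 genes tested in this comparison 21.9% were called, 9.75% lower and 12.2% higher. The groups did not overlap for 4 of the 9 genes, against 7.78% of all genes, and their median log2 fold change was -0.80, against 0.02 over all genes. This comparison shares its vehicle libraries with that of AAV-GFP, so that the 2 are not independent.

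Whether the miR-34b/c vectors moved these genes in TAA livers was asked by comparing both TAA groups. None of the 9 genes was called by edgeR, where 3.36% of all 9252 genes tested were called, and 1.38% of all genes had groups that did not overlap against 0 of the 9. At an unadjusted p under 0.05 there were 1414 of all 9252 genes tested and 1 of the 9, *Baat*, whose log2 fold change was -0.50 (SE 0.22, adjusted p = 0.269). It was -0.33 without AAV-GFP library 6 (adjusted p = 0.462) and -0.41 without library 7 (adjusted p = 0.413), and its unadjusted p was above 0.05 in 7 of the 14 fits that each left out 1 library. DESeq2 called 0, and limma-voom with sample quality weights called 1, *Akr1d1*, at -0.82 (adjusted p = 0.0331) where edgeR gave -0.23 (SE 0.34, adjusted p = 0.826; -0.54 to -0.10 with 1 library left out), a fit that called 8.79% of all genes. *Cyp7a1* had a log2 fold change of 0.75 (SE 0.40, adjusted p = 0.397) and *Nr1h4* one of -0.39 (SE 0.22, adjusted p = 0.431). The other values were 0.17 (SE 0.14) for *Slc27a5*, -0.15 (SE 0.15) for *Cyp27a1*, -0.10 (SE 0.40) for *Nr0b2*, -0.09 (SE 0.38) for *Cyp7b1* and -0.08 (SE 0.21) for *Cyp8b1*. The value of *Nr0b2* was -0.75 by limma-voom (adjusted p = 0.36) and 0.21 without the 3 libraries of vehicle-level *Dbp*, neither of them called. The median of the 9 was -0.10, against -0.01 over all genes tested. The sign of *Slc27a5* turned with scaling by library size only, which moved the median of all genes to -0.20, and the signs of *Cyp8b1*, *Cyp7b1* and *Nr0b2* turned in other fits. With that scaling the calls over all genes went from 180 higher and 131 lower to 119 and 505, and those of AAV-miR-34b/c against vehicle from 1131 and 906 to 730 and 1616.

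**Figure D3:**
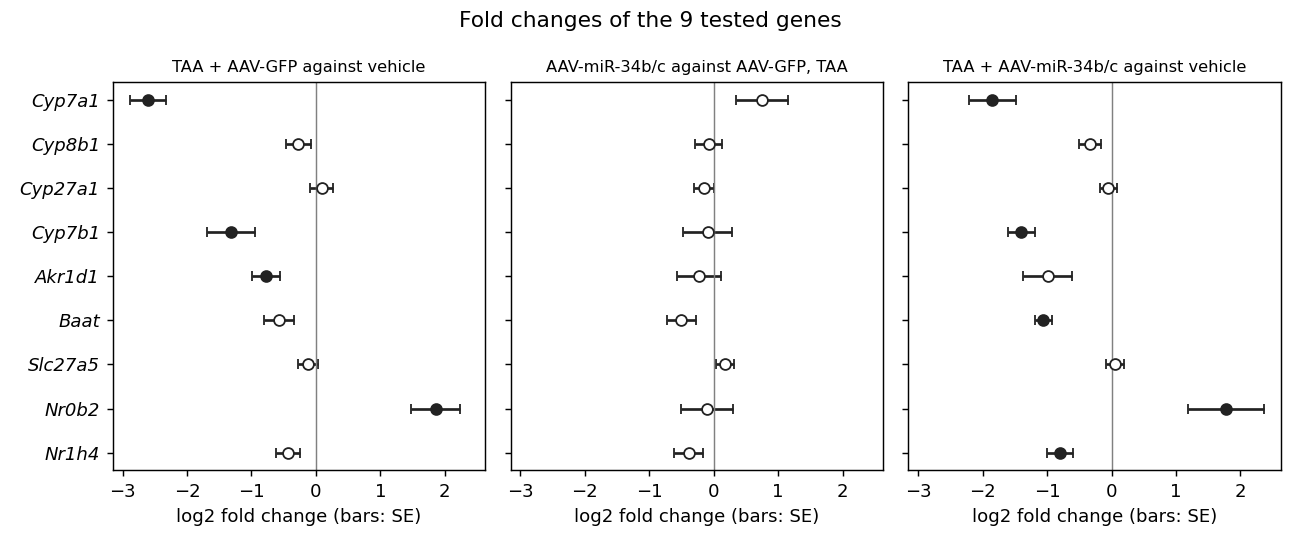
Log2 fold change (edgeR) of the 9 tested genes in the 3 comparisons, with bars for the standard error; filled points passed an adjusted p of 0.05. Against vehicle *Cyp7a1* is lowest, at -2.61 and -1.85, and *Nr0b2* highest, at 1.86 and 1.77, while no gene is called between the TAA groups.

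The 3 TAA libraries with *Dbp* at the vehicle level also held the highest *Cyp7a1* and the lowest *Nr0b2* of their groups. In AAV-GFP library 7 *Cyp7a1* had 141 CPM, against 35.7 to 67.5 CPM in the other 6 libraries, and *Nr0b2* had 15.5 CPM, against 19.9 to 38.4 CPM. In AAV-miR-34b/c libraries 5 and 7 *Cyp7a1* had 175 and 195 CPM, against 36.7 to 113 CPM in the other 5, and *Nr0b2* had 2.86 and 6.63 CPM, against 22.9 to 44.5 CPM. *Arntl*, a core clock gene in antiphase to *Dbp*, had 0.316 to 1.05 CPM (1 to 3 counts) in these 3 libraries. In the other 11 it had 2.41 to 8.75 CPM (11 to 39 counts). With vehicle it had 0 to 1.21 CPM, on 0 to 5 counts, so the low values are near the floor. *Cyp7a1* stayed below vehicle in these 3 libraries as well.

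Without the 3 libraries, a setting chosen after the data were seen, the log2 fold change of *Cyp7a1* was -2.97 with AAV-GFP and -2.41 with AAV-miR-34b/c, and that of *Nr0b2* was 1.96 and 2.18. As the libraries left out hold the highest *Cyp7a1* and the lowest *Nr0b2* of their groups, larger values were fixed by leaving them out and are a description with no test. In that setting 6 of the 9 genes were called with AAV-GFP, where 18.6% of all 9389 genes tested were called against 12.7% with all libraries, and 5 with AAV-miR-34b/c, where 14.8% of all 9123 were called against 21.9%. *Baat* (-0.66) and *Nr1h4* (-0.53) were the genes added with AAV-GFP, by leaving out library 7 alone, as given above. No gene was called between the TAA groups. The part of the clock or of the time of collection in these values was not tested.

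Across the 7 livers of AAV-GFP-injected mice, *Cyp7a1* and *Nr0b2* in log2 CPM gave r = -0.86 (exact permutation p = 0.0167, 0.0333 adjusted over 2 groups) and rho = -0.75 (exact permutation p = 0.0663, 0.133 adjusted). Libraries 1 and 2 of that group are a close pair. Without the 2 libraries farthest from the median of *Nr0b2*, 4 and 7, r was 0.00. Those 2 hold the lowest *Nr0b2* and the highest *Cyp7a1* of the group, so r = -0.86 draws largely on them. Leaving them out narrows both ranges, so r over the other 5 cannot show whether a relation holds among them. Across the 7 AAV-miR-34b/c libraries r was -0.62 (exact permutation p = 0.172, the same adjusted) and rho -0.32 (exact permutation p = 0.498, the same adjusted). These libraries fell into 2 clusters by *Nr0b2*, with the close pair 5 and 7 apart, and without that pair r turned to 0.78 over 5 libraries, so the sign rests on those samples.

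**Figure D4:**
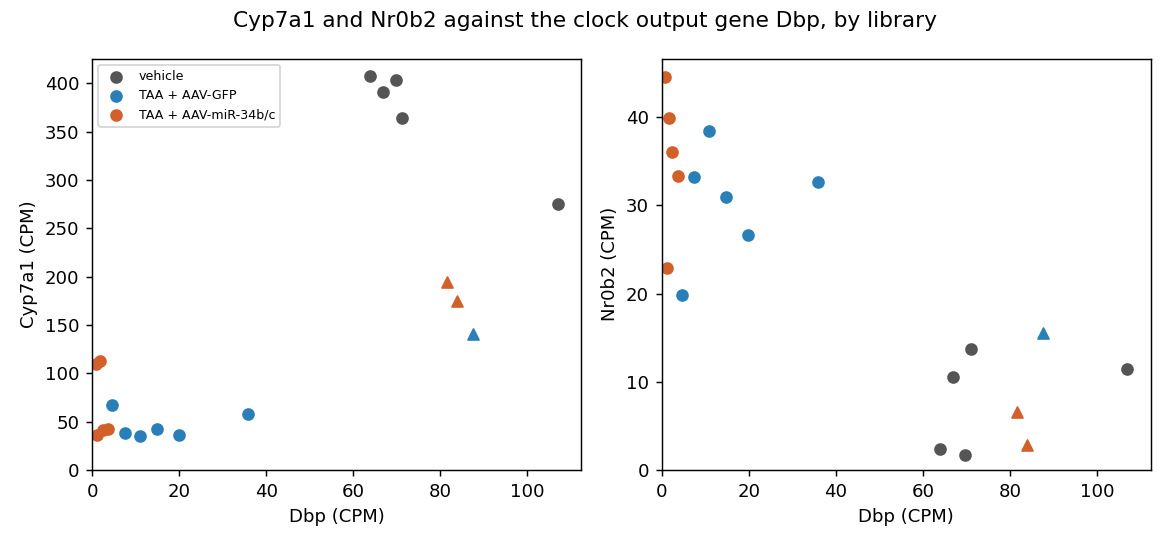
*Cyp7a1* and *Nr0b2* (CPM) against *Dbp* (CPM), a clock output gene, in each library of the 3 groups on linear axes. Triangles are the 3 TAA libraries with *Dbp* at 81.6 to 87.5 CPM, which have higher *Cyp7a1* (141 to 195 CPM) and lower *Nr0b2* (2.86 to 15.5 CPM) than the other TAA libraries.

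The genes called in all lists, hepatocyte and enterocyte markers included, were also read from the fit with close pairs summed, a step added after the data were seen. All of these kept their sign, and 7 of 29 were still called with AAV-GFP against vehicle, 10 of 24 between the TAA groups and 8 of 41 with AAV-miR-34b/c against vehicle. The list counts below stand beside 12.7% of all genes called with AAV-GFP against vehicle (7.54% higher, 5.19% lower), 21.9% for AAV-miR-34b/c against vehicle (12.2% higher, 9.75% lower) and 3.36% between the TAA groups.

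Of 12 genes of the circadian clock and its output, 11 were tested between AAV-GFP and vehicle, and 2 rose and 3 fell. *Arntl*, with 0 to 5 counts per vehicle library, rose by 3.14 on the log2 scale (SE 0.69, adjusted p = 0.00684). *Nr1d1*, a repressor in the clock, rose by 1.31 (SE 0.35, adjusted p = 0.0175). *Per3* fell by 2.59 (SE 0.48, adjusted p = 0.00212) and *Nr1d2* by 0.90 (SE 0.25, adjusted p = 0.0248). With AAV-miR-34b/c against vehicle, 1 of 10 rose and 3 fell, with *Per1*, a core repressor of the clock, falling by 0.84 (SE 0.26, adjusted p = 0.0277). Between the TAA groups 0 of 8 were called by edgeR. The median log2 fold changes of the tested genes were -0.76, -0.88 and -0.10, against -0.01, 0.02 and -0.01 over all genes. The list mixes genes of opposite phase, such as *Arntl* and *Per3*, so these medians give no direction for the clock. With close pairs summed *Per3* was still called with AAV-GFP (-2.74, adjusted p = 0.0129). The calls of *Arntl* (0.0541), *Nr1d1* (0.147), *Nr1d2* (0.111) and *Per1* (0.16) were lost, and the value of *Dbp* in that setting is not given here.

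Of 15 further genes of the synthesis pathway, 13 were tested. With AAV-GFP against vehicle 2 rose and 1 fell, with AAV-miR-34b/c against vehicle 1 rose and 4 fell, and between the TAA groups 0 rose and 3 fell, against 12.7%, 21.9% and 3.36% of all genes called. Their medians were 0.05, -0.34 and -0.19, against -0.01, 0.02 and -0.01 over all genes. Summed, the 15 genes had 4260 to 4770 CPM with vehicle. AAV-GFP libraries 6 and 7, at 4520 and 4400 CPM, lay within that range, and the other TAA libraries had 2780 to 3840 CPM. *Hsd17b6*, a hydroxysteroid dehydrogenase, rose by 0.64 with AAV-GFP (SE 0.20, adjusted p = 0.0381), fell by 1.19 with AAV-miR-34b/c against vehicle (SE 0.32, adjusted p = 0.014) and fell by 1.84 between the TAA groups (SE 0.31, adjusted p = 0.00204). *Akr1c6*, a hydroxysteroid dehydrogenase of the aldo-keto reductase family, fell by 1.14 with AAV-miR-34b/c against vehicle (SE 0.19, adjusted p = 0.00104). *Slc27a2*, a coenzyme A ligase of very long chain fatty acids and bile acid precursors, fell by 0.63 in the same comparison (SE 0.14, adjusted p = 0.00541). *Cyp2c70*, which makes the mouse-specific muricholic acids, fell by 0.98 with AAV-GFP (SE 0.22, adjusted p = 0.00811), and *Cyp2a12*, a bile acid 7α-hydroxylase, rose by 0.71 (SE 0.18, adjusted p = 0.0139). With close pairs summed, *Hsd17b6* was still called between the TAA groups (-1.91, adjusted p = 0.0219) and *Akr1c6* with AAV-miR-34b/c (-1.24, adjusted p = 0.0391), and the other calls were lost, *Hsd17b6* at 0.199 and 0.0746 against vehicle, *Slc27a2* at 0.112, *Cyp2c70* at 0.0971 and *Cyp2a12* at 0.104.

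Of 19 further regulators, 17 were tested, of which 3 rose with AAV-GFP, and 3 rose and 1 fell with AAV-miR-34b/c against vehicle, with medians of 0.12 and 0.20. The 3 that rose with AAV-GFP, with 0 called lower, stand beside 7.54% of all genes called higher there. With AAV-miR-34b/c the shares of all genes were 12.2% higher and 9.75% lower. Between the TAA groups 0 were called by edgeR, with a median of 0.03. Summed, the 19 regulators had 1030 to 1320 CPM with vehicle. AAV-GFP libraries 6 and 7 (1080 and 1050 CPM) and AAV-miR-34b/c libraries 1 and 2 (1140 and 1190 CPM) lay within that range. The other TAA libraries had 1430 to 1680 CPM. *Hnf4a*, which encodes the activator HNF4α, rose by 0.86 with AAV-GFP (SE 0.18, adjusted p = 0.00538) and by 1.21 with AAV-miR-34b/c (SE 0.15, adjusted p = 0.000100). *Zfp36l1*, whose protein degrades mRNA and can act on *Cyp7a1* mRNA, rose by 1.51 (SE 0.23, adjusted p = 0.000382) and 1.08 (SE 0.19, adjusted p = 0.00151). *Mafg*, a repressor induced by FXR, rose by 1.15 (SE 0.27, adjusted p = 0.00903) and 1.18 (SE 0.26, adjusted p = 0.00558). *Nr1i3*, which encodes the receptor CAR, fell by 1.0 with AAV-miR-34b/c (SE 0.23, adjusted p = 0.00687). With close pairs summed, *Hnf4a* was still called with AAV-miR-34b/c (1.24, adjusted p = 0.0205) and *Zfp36l1* with AAV-GFP (1.33, adjusted p = 0.0262), and the other calls were lost, *Hnf4a* at 0.0799, *Zfp36l1* at 0.0693, *Mafg* at 0.113 and 0.0815 and *Nr1i3* at 0.0754. *Fgf15*, the intestinal hormone that represses *Cyp7a1* in mice, had no count in any of the 19 libraries.

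Of 10 other FXR targets, 8 were tested between AAV-GFP and vehicle, where 1 rose, and 9 with AAV-miR-34b/c against vehicle, where 1 rose and 2 fell, with medians of 0.12 and 0.21. The shares of all genes called there were 12.7% (7.54% higher) and 21.9% (12.2% higher, 9.75% lower). The first count is 1 gene, so it gives no direction for the list. *Abcb11*, the bile salt export pump, fell by 0.62 with AAV-miR-34b/c against vehicle (SE 0.15, adjusted p = 0.00953). *Abcb4*, the phospholipid flippase of bile, fell by 0.65 between the TAA groups, the single call of 8 there, where the median was -0.01 (SE 0.13, adjusted p = 0.00989). *Sdc1*, a heparan sulfate proteoglycan, rose by 0.88 with AAV-miR-34b/c against vehicle (SE 0.24, adjusted p = 0.0173) and *Ces1g*, a carboxylesterase, by 0.66 with AAV-GFP (SE 0.18, adjusted p = 0.025). These 4 calls were lost with close pairs summed (adjusted p = 0.148 for *Abcb11*, 0.187 for *Abcb4*, 0.112 for *Sdc1* and 0.169 for *Ces1g*).

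The cell type lists were read beside these genes. Pericentral hepatocyte markers, of the zone where *Cyp7a1* is chiefly expressed, summed to 5590 to 6300 CPM with vehicle, 2900 to 5630 CPM with AAV-GFP and 3940 to 4690 CPM with AAV-miR-34b/c, and 3 of 10 tested fell with AAV-GFP and 4 of 9 with AAV-miR-34b/c against vehicle, where 5.19% and 9.75% of all genes fell. Periportal markers summed to 9190 to 10900, 8340 to 12700 and 8820 to 12000 CPM. Macrophage markers summed to 371 to 763, 344 to 532 and 452 to 670 CPM, endothelial markers to 192 to 242, 161 to 219 and 226 to 277 CPM, and cholangiocyte markers to 18.6 to 40.9, 54 to 95.2 and 49.9 to 119 CPM. Against vehicle, 3 of 10 macrophage markers tested fell with AAV-GFP and 2 of 10 with AAV-miR-34b/c, 1 of 2 cholangiocyte markers rose with either, 1 of 10 periportal markers rose and 1 fell with AAV-GFP, 2 rose and 1 fell with AAV-miR-34b/c, and 1 of 6 endothelial markers rose and 1 fell with AAV-miR-34b/c. Between the TAA groups 1 of 9 macrophage, 1 of 6 endothelial and 1 of 9 pericentral markers rose. Several of these counts, such as 1 of 10 periportal markers higher and 1 lower with AAV-GFP, are near the shares of all genes given above. Stellate cell markers summed to 370 to 562, 417 to 532 and 264 to 492 CPM, the largest part from *Dcn*, with means of 368, 316 and 260 CPM. With AAV-GFP against vehicle 4 of 9 tested rose, with *Col1a1*, a collagen gene, rising by 2.42 (SE 0.36, adjusted p = 0.000298). With AAV-miR-34b/c against vehicle 0 of 7 were called by edgeR, and *Col1a1* was at 0.51 (SE 0.26, adjusted p = 0.167). Between the TAA groups 2 of 8 fell, *Col1a1* by 1.92 (SE 0.29, adjusted p = 0.000898) and *Col3a1* by 1.46 (SE 0.26, adjusted p = 0.00305). Of 16 acute phase genes, which hepatocytes induce in inflammation, 4 fell with AAV-GFP against vehicle, 14 rose between the TAA groups and 10 rose with AAV-miR-34b/c against vehicle. They summed to 27200 to 69000 CPM with vehicle, 21300 to 54800 CPM with AAV-GFP and 47100 to 189000 CPM with AAV-miR-34b/c. The close pairs vehicle 1 and 4 (69000 and 67800 CPM) and AAV-miR-34b/c 1 and 2 (186000 and 189000 CPM) were the highest of their groups. *Saa4*, a serum amyloid gene that can share reads with its relatives, rose by 1.60 between the TAA groups (SE 0.16, adjusted p = 1.9e-05). The calls of *Col1a1*, *Col3a1* and *Saa4* held with close pairs summed (adjusted p = 0.00898 and 0.0331 for *Col1a1*, 0.0318 for *Col3a1* and 0.00246 for *Saa4*), and the counts of the lists above do not apply to that setting. The part of these lists in the values of the synthesis genes was not tested.

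The genes closest to 4 of the 10 in pattern were sought among 9919 other genes over the 19 libraries, by the root mean square difference of centred log2 CPM in units of the SD of the gene. Closest to *Cyp7a1* were *Gpcpd1* (0.331), *Slc41a3* (0.497) and *Upp2* (0.512). Closest to *Cyp7b1* were *Mup14* (0.429), *Serpina12* (0.484) and *Mup10* (0.503), where major urinary protein genes can share reads. Closest to *Nr0b2* were *Cwc22* (0.564), *Pnrc1* (0.58) and *Rhbdf2* (0.60), and closest to *Cyp8b1* were *Acaa1a* (0.616), *Letm1* (0.617) and *Glyat* (0.65). *Gpcpd1*, a phosphodiesterase of glycerophosphocholine, had a mean of 164 CPM with vehicle, 27.7 CPM with AAV-GFP and 33.6 CPM with AAV-miR-34b/c. Likeness in pattern is a description and says nothing of shared control.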

How the data were processed

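RNA from 19 mouse livers was sequenced with a 3′-end library kit. The paper states that the sequencing service's own pipeline aligned the reads and counted them by gene, and the labels name STAR and mm10. Raw counts per gene were deposited by the authors. Which annotation, which strand and whether molecular identifiers were used is not given in the sources used here. Overlapping genes can therefore share or lose reads, and counting errors do not cover PCR duplicates. Symbols and positions came from GENCODE M21 (GRCm38). Each pair of groups was fitted alone in edgeR 4.0.16 (R 4.3.3; TMM, filterByExpr with minimum count 10 and minimum total 15, quasi-likelihood test, Benjamini-Hochberg over all genes tested). Log2 CPM used a prior count of 2. Exact permutation tests were two-sided. DESeq2 1.42.0 and limma-voom (limma 3.58.1) were alternatives, as were other filters, scalings, a replicate block, close pairs of libraries summed (coefficient of variation under 0.2) and each library left out. All 10 members were named, from each list of other genes at most 5 called ones by smallest adjusted p, and 3 genes closest in pattern to each of 4 members. *Dbp*, *Fgf15* and the cell type markers were named after their values were seen. The members and lists were chosen with earlier results of these data known.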

Additional observations from a re-analysis of the deposited data

Results flagged for a closer look

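Of 33 groups of libraries examined (9 genes and 2 ratios in 3 groups), 1 held a library far from the others, where chance at 1 in 20 gives 1.65. In livers of vehicle-treated mice, library 2 had a *Cyp7a1* log2 CPM of 8.11 and the next lowest had 8.51. The same library had the highest *Dbp* of its group, at 107 CPM.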

How the results depend on the processing

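Between AAV-GFP and vehicle, the number of the 9 genes called (4) was 7 with the replicate block, 7 with the libraries of that fit unpaired and 2 with close pairs summed, and all genes called (1212) were 2687 with limma-voom, 3088 with the replicate block, 2880 unpaired and 227 with close pairs summed. Between the TAA groups, the genes called (0) were 1 with limma-voom, and all genes called (311) were 624 with library size only, 542 with DESeq2, 813 with limma-voom, 142 with the replicate block and 87 with close pairs summed. Between AAV-miR-34b/c and vehicle, the genes called (5) were 3 with close pairs summed, and all genes called (2037) were 3839 with limma-voom, 922 with the replicate block, 1206 unpaired, 331 with close pairs summed and 1352 without the 3 libraries of vehicle-level *Dbp*. With each library left out in turn, the genes called were 2 to 6 and all genes called 689 to 1859 for AAV-GFP against vehicle, and all genes called 1267 to 2695 for AAV-miR-34b/c against vehicle. The former was 728 without vehicle library 1, 689 without vehicle 4, 806 without AAV-GFP 3 and 1859 without AAV-GFP 6, and the latter 1328 and 1267 without vehicle 1 and 4; without either of these, 2 of the 9 genes were called with AAV-GFP. Same-numbered libraries, as deviations from their group means, correlated from -0.28 to 0.28. Differently numbered libraries were not compared in this way, so whether the numbers pair the livers was not tested.

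The log2 ratio of *Cyp8b1* to *Cyp7a1* between AAV-miR-34b/c and vehicle was 1.90 with close pairs summed. That of *Cyp7b1* to *Cyp7a1* was 0.91 without the 3 libraries of vehicle-level *Dbp*. As those libraries hold the highest *Cyp7a1* of their groups, which lowers this ratio, the value is a description with no test. With each library left out in turn the difference in this ratio was 0.40 to 0.79, and 0.76 to 1.40 between AAV-GFP and vehicle. Between AAV-GFP and vehicle, the block added *Cyp8b1* (-0.55), *Baat* (-0.95) and *Nr1h4* (-0.66) to the calls, the same libraries unpaired added the same 3 genes, and limma-voom called 6 genes, where these fits called 33.3%, 31.1% and 28.2% of all genes. *Cyp7b1* was -2.17 with the block and -2.01 unpaired there. The block and the unpaired fit leave out AAV-GFP 6 and 7. These libraries held the highest *Cyp8b1*, *Baat*, *Nr1h4* and *Cyp7b1* of their group, so larger falls were fixed by leaving them out. Signs turned for values near 0. Between the TAA groups these were *Slc27a5* at -0.03 with library size only, *Cyp8b1* at 0.11 and *Cyp7b1* at 0.32 with limma-voom, *Cyp7b1* at 0.19 with the replicate block and *Nr0b2* at 0.21 without the 3 libraries. *Slc27a5* was at -0.10 with library size only between AAV-miR-34b/c and vehicle. With each library left out, *Cyp8b1* was -0.18 to 0.06, *Cyp7b1* -0.26 to 0.25 and *Nr0b2* -0.26 to 0.10 between the TAA groups, and *Cyp27a1* was -0.11 to 0.01 between AAV-miR-34b/c and vehicle. The cause was not tested.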
